A study of Mus musculus with 6 samples.

Results

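The 7 genes described here are the 4 Id genes (Id1, Id2, Id3 and Id4), the inhibitory SMAD genes Smad6 and Smad7, and the ligand gene Bmp4. All ATAC-seq peaks that overlapped one of these genes, or the 50 kb on either side of it, were taken from 6 peak lists of mouse embryonic stem cells. In ATAC-seq the transposase Tn5 cuts open chromatin and tags it for sequencing. The lists together gave 65324 regions, each made of peaks that overlap by at least 1 bp, and 80 of them lay in the 7 windows. The cells were CGR8 mouse embryonic stem cells, named Cdt1-MD in the design text, untreated, and grown on gelatin in N2B27 medium with the GSK3 inhibitor CHIR99021, the MEK inhibitor PD184352 and leukemia inhibitory factor, a recipe in which the labels name neither serum nor a BMP ligand. There were 3 groups of 2 lists, named mito, LM and eG1-1, and all 6 samples shared this line and medium. The 2 lists of a group are its pair, given in the order of their replicate numbers. The series title names mitotic exit, and the names were accordingly read as standing for mitosis, its late part and early G1. No label spells them out, the peak names of the LM lists say Telo instead, and titles and protocol differ on the number of cells. Whether replicates were separate cultures is not said, and p-values therefore cover the spread of these samples alone, which may be technical.

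BMP ligands bind paired type I and type II receptor kinases, which phosphorylate SMAD1, SMAD5 and SMAD9. These bind SMAD4, enter the nucleus and switch on targets, among which the Id genes and the inhibitory Smad genes are the best known. ID proteins have a helix-loop-helix but no DNA-binding basic region, and hold E proteins such as TCF3, TCF4 and TCF12 away from DNA. SMAD6 and SMAD7 feed back on the receptors and SMADs. In mouse embryonic stem cells BMP4 and leukemia inhibitory factor together sustain self-renewal, with Id genes as targets of the BMP arm.

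The promoters of 5 of the 7 genes were found in the RefSeq promoter table (GRCm38.p6, the assembly of mm10), each running from 250 bases before the transcription start to 50 after it. They are shown because the peaks at these starts are described stage by stage below and because SMADs act through short sites in such DNA. Of these 5 starts, only that of Id2 lies in a region whose score ranks were tested between stages. The Id2 promoter lies at chr12:25096043-25096342 (minus strand), that of Id3 at chr4:136143572-136143871 (plus), that of Id4 at chr13:48260866-48261165 (plus), that of Smad6 at chr9:64022010-64022309 (minus) and that of Bmp4 at chr14:46390620-46390919 (minus). Capitals mark the short SMAD site GTCT and the GC-rich SMAD sites GGCGCC and GGAGCC on either strand, so that AGAC and GGCTCC are also in capitals.
Id2: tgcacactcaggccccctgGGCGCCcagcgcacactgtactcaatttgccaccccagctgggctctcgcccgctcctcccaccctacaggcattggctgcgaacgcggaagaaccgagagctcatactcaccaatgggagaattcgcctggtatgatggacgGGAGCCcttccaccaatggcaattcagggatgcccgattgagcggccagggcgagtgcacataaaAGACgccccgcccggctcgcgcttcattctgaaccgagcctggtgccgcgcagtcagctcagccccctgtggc
Id3: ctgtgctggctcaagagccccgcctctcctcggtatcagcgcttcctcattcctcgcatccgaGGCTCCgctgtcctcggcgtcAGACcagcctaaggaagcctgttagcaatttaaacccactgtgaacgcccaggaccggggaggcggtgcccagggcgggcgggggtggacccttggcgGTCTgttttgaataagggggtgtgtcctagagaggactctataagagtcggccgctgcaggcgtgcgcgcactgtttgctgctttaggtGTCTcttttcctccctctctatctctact
Id4: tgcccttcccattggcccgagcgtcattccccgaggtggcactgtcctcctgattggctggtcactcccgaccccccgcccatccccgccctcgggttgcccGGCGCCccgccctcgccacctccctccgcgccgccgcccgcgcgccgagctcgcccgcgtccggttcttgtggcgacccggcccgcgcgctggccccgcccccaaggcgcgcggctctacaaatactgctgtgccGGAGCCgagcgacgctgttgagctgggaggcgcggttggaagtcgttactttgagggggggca
Smad6: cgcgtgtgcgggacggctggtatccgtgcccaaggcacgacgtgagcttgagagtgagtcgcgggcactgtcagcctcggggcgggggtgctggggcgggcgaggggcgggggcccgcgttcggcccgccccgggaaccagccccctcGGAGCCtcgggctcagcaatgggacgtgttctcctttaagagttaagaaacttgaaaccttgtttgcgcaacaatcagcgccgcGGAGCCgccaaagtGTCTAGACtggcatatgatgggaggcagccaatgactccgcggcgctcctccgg
Bmp4: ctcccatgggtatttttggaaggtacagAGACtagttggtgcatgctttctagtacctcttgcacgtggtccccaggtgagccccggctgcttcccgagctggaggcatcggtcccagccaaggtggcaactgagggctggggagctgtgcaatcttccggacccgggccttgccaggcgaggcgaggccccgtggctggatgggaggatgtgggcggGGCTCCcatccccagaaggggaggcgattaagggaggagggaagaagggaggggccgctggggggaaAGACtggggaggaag

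These letters describe the DNA and do not show binding. GTCT was found 3 times in the Id3 promoter, 2 times each in those of Smad6 and Bmp4, 1 time in that of Id2 and not in that of Id4. Of all 32851 promoters in the table, 88.0% held it. GGCGCC was present in the promoters of Id2 and Id4 and in 11.9% of all promoters, and GGAGCC in all 5 and in 30.8%. In the Smad6 promoter 2 such short sites adjoin from base -4 to base 4 around the transcription start and read GTCTAGAC, a form that 0.213% of all promoters held. That form was added after the sequences had been read. The compound BMP response element was searched in 1 form only, with a set GC-rich site exactly 5 bases before GTCT (0.244% of promoters). This form was in none of the 5, and other spacings and other GC-rich sites were not searched. In the Smad6 promoter a GC-rich SMAD site at base -18 and a short SMAD site at base -4 lie on the same strand, outside this form. Also absent from all 5 were the octamer ATTTGCAT (1.74%), the SOX site CATTGT (12.6%) and the ESRRB site TCAAGGTCA (0.423%). The same held for the STAT site TTCNNNGAA (8.30%), the CRE TGACGTCA (1.79%) and TATAAA (13.6%). The SP and KLF site GGGCGG (35.7% of promoters) was in all 5, with 5 matches in Id4 and 4 in Smad6, CCAAT (37.4%) in Id2, Id4 and Smad6, and the E-box CANNTG (72.3%) in Id2, Smad6 and Bmp4. Both strands were searched, and the 2 GGGCGG matches of Id3 overlap each other. A peak overlapped the printed Id2 promoter in 6 lists, those of Id3 and Id4 in 4 each, and those of Smad6 and Bmp4 in 3 each. Of all promoters in the table, 16.1% were overlapped in all 6 lists, and each list on its own overlapped 21.5% to 31.8%.

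The lists held 24598 and 30446 peaks in the mito pair, 23867 and 20639 in the LM pair, and 32101 and 48396 in the eG1-1 pair. Read depth is unknown, and no call is not proof of closed chromatin. Each peak carries the authors' own score, a whole number from 13 upwards with medians of 48 to 59, which compares peaks within a list and not between lists. The peak names carry 1 batch name for all replicate 1 lists and another for all replicate 2 lists, so values are given list by list. Of 10 embryonic stem cell markers, 9 and 7 had a peak within 1 kb of a gene end in the mito pair, 5 and 4 in the LM pair, and 3 and 8 in the eG1-1 pair. Of all protein-coding genes 46.6% and 50.4%, 47.4% and 35.7%, and 42.1% and 52.7% had one in the same order. The stem cell marker share lay below this in eG1-1 replicate 1 (30.0%) and above it elsewhere, narrowly so in the LM pair. Of 5 primitive endoderm markers none had one in any list, of 5 fibroblast markers 1 to 3 did, with Col1a1 in all 6 lists, and of 3 neural markers 1 to 3 did. Their part in the results was not tested.

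Id2 was the one Id gene with a peak at its start in every list. Its region on chromosome 12, from 25095907 to 25096716 (mm10), overlaps the gene's first bases and the promoter shown above. Its scores were 76 and 99 in the mito pair, 46 and 49 in the LM pair, and 58 and 213 in the eG1-1 pair. Every list called it, and the ranks that set these scores against the rest of each list are given further on. The peaks differed in width, from 810 bp in mito replicate 2 to 308 bp in LM replicate 2, which ended at base -36 from the start.

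Id3 and Id4 had a peak at the start in 4 lists each. The Id3 region on chromosome 4, from 136143492 to 136144068, scored 50 in mito replicate 1, 55 in LM replicate 1, and 43 and 152 in eG1-1. No peak was called there in mito replicate 2 or LM replicate 2, so both eG1-1 lists held it, and 1 list of each earlier stage. The Id4 region on chromosome 13, from 48260615 to 48261335, scored 128 in mito replicate 2, 150 in LM replicate 2, and 100 and 165 in eG1-1. It was missing from mito replicate 1 and LM replicate 1. The batch names therefore go with the missing calls in mito and LM at both genes, in opposite senses. Their part in these calls was not tested. LM replicate 1 instead held a peak inside Id4, 574 to 957 bases after the start, with a score of 72. Counted from the start, the 2 eG1-1 peaks at Id4 ended at bases -165 and -149, and that of mito replicate 2 ran from base -501 to base 219.

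Id1 had no peak within 1 kb of either end in any of the 6 lists. The gene lies on chromosome 2 from 152736251 to 152737410, and 0 of the 14 regions of its window overlap it. The closest, 1265 bp from its lower end, scored 16 in LM replicate 2 and 36 in eG1-1 replicate 2 and was absent elsewhere. Of 21887 protein-coding genes, 8446 likewise had no peak within 1 kb of an end in any list.

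The Smad6 start, at the upper end of the gene (chromosome 9, 63953076 to 64022085), lay in a region that spans 64021937 to 64023386. Its scores were 80 and 139 in mito, 109 in LM replicate 1 with no peak in LM replicate 2, and 29 and 62 in eG1-1. LM replicate 2 came from the shortest list. The peaks of the 3 replicate 1 lists covered the start, and reached 122 bases past it in mito, 29 in LM and 31 in eG1-1. Those of mito and eG1-1 replicate 2 ended at bases -394 and -320, so no replicate 2 peak touched the adjoining GTCT and AGAC. At the other end of Smad6 a region from 63953570 to 63953933 scored 32 and 25 in LM and 37 in eG1-1 replicate 2, with none in mito.

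The Smad7 region at the gene's lower end had the highest scores of any gene-end region of the 7 genes in mito. It lies on chromosome 18 from 75366456 to 75367235, 130 bp outside the gene (75367365 to 75395935) and within the lncRNA Gm20544. Its scores were 205 and 169 in the mito pair, 119 and 50 in the LM pair, and 52 and 77 in the eG1-1 pair. Its place among the scores of each list is given with the ranks. The peaks were 740 and 755 bp wide in the mito pair, 780 and 604 bp in the LM pair, and 416 and 568 bp in the eG1-1 pair.

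Bmp4 had a start peak in both mito lists but in no LM list. The region on chromosome 14, from 46390405 to 46390936, had scores of 38 and 35 in mito and 59 in eG1-1 replicate 2, with none in eG1-1 replicate 1. With both ends of a gene pooled, Bmp4 was the 1 gene of the 7 with a gene-end peak in both lists of one stage and neither of another, in a comparison in which 2.17% of all protein-coding genes had a peak in mito and not in LM. Taken by itself, the region at the far end of Smad6 was also in both LM lists and no mito list. A second Bmp4 region, 1059 bp beyond the Bmp4 start, scored 32 in mito replicate 2, 50 in LM replicate 2, and 96 and 79 in eG1-1.

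**Figure D1:**
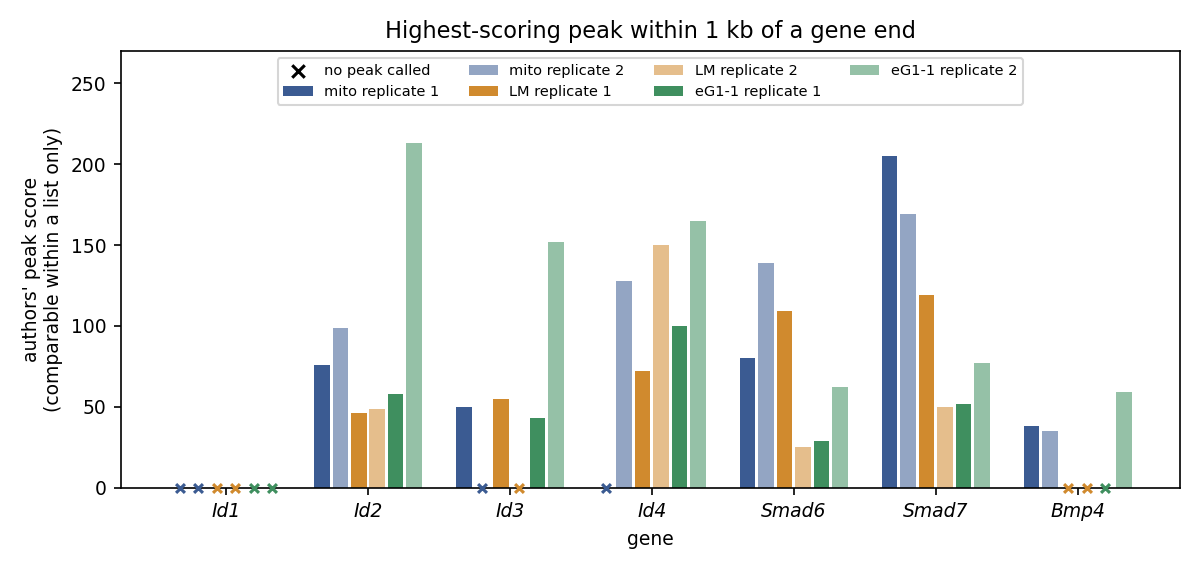
Highest score of a peak within 1 kb of either end of each gene (vertical axis, the authors' score) in the 6 lists, with crosses where none was called. Id2 and Smad7 had a peak in all 6 lists, Smad6 too once its far end is counted (25 in LM replicate 2), and Id1 had none.

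Over the whole windows, gene ends included, 13 of the 80 regions were held by all 6 lists (16.3%, against 15.5% of all regions), and 28 by a single list (35.0%, against 42.4%). Of those 28, eG1-1 replicate 2 alone held 17 (60.7%), where the same list held 51.5% of all regions found in a single list. Regions are numbered along the chromosome within each window. In the Id1 window the regions held throughout were region 1, at the end of Mcts2 within H13 (chromosome 2, 152686429 to 152687536), and region 8, 8858 bp from Id1 and between genes (152726728 to 152727393). Region 8 scored 59 and 117 in the mito pair, 35 and 67 in the LM pair, and 46 and 130 in the eG1-1 pair. Id2 had a second constant region, number 5, which lies 28399 bp from the gene (chromosome 12, 25124491 to 25124924) and scored 39 and 130 in the mito pair, 35 and 56 in the LM pair, and 50 and 117 in the eG1-1 pair. In these 2 regions, and in the Id2 start region, the replicate 2 percentile was the higher one in each stage, so the batch name moves with them.

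Id3 region 7 lies 1209 bp past the 3′ end of the gene (chromosome 4, 136146601 to 136147811) and scored 122 and 102 in the mito pair, 71 and 22 in the LM pair, and 95 and 120 in the eG1-1 pair. It was called in each list. Region 12 of that window lies inside E2f2, which encodes a cell-cycle transcription factor (136180056 to 136181144), and scored 82 and 99 in the mito pair, 117 and 153 in the LM pair, and 196 and 187 in the eG1-1 pair. Id4 region 3, 15267 bp from the gene (chromosome 13, 48245067 to 48245849), scored 59 and 92 in the mito pair, 27 and 17 in the LM pair, and 33 and 58 in the eG1-1 pair. It lies within the lncRNAs A330033J07Rik and Gm36183. Smad6 regions 10 (64043024 to 64043566) and 11 (64049483 to 64050614, over the lncRNA 1110036E04Rik) lie beyond the gene's start. Region 10 scored 24 and 74 in the mito pair, 53 and 43 in the LM pair, and 132 and 71 in the eG1-1 pair. Region 11 scored 123 and 105 in the mito pair, 116 and 113 in the LM pair, and 57 and 87 in the eG1-1 pair. Inside Smad6, region 7 (64018302 to 64018815) scored 34 in mito replicate 2, 62 in LM replicate 2, and 144 and 171 in the eG1-1 pair, and had no call in the other lists. This region and the one 1059 bp beyond the Bmp4 start were singled out after their values were seen. Smad7 regions 3 and 7 lie 35294 and 6158 bp below the gene. Region 3 stood at a low percentile in all 6 lists, from 2.88 in eG1-1 replicate 2 to 17.5 in mito replicate 1. Region 7 scored 84 and 183 in the mito pair, 75 and 59 in the LM pair, and 70 and 218 in the eG1-1 pair. Bmp4 region 9 lies 20075 bp beyond the gene's start (chromosome 14, 46410744 to 46411236) and scored 102 and 120 in the mito pair, 29 and 42 in the LM pair, and 61 and 69 in the eG1-1 pair.

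**Figure D2:**
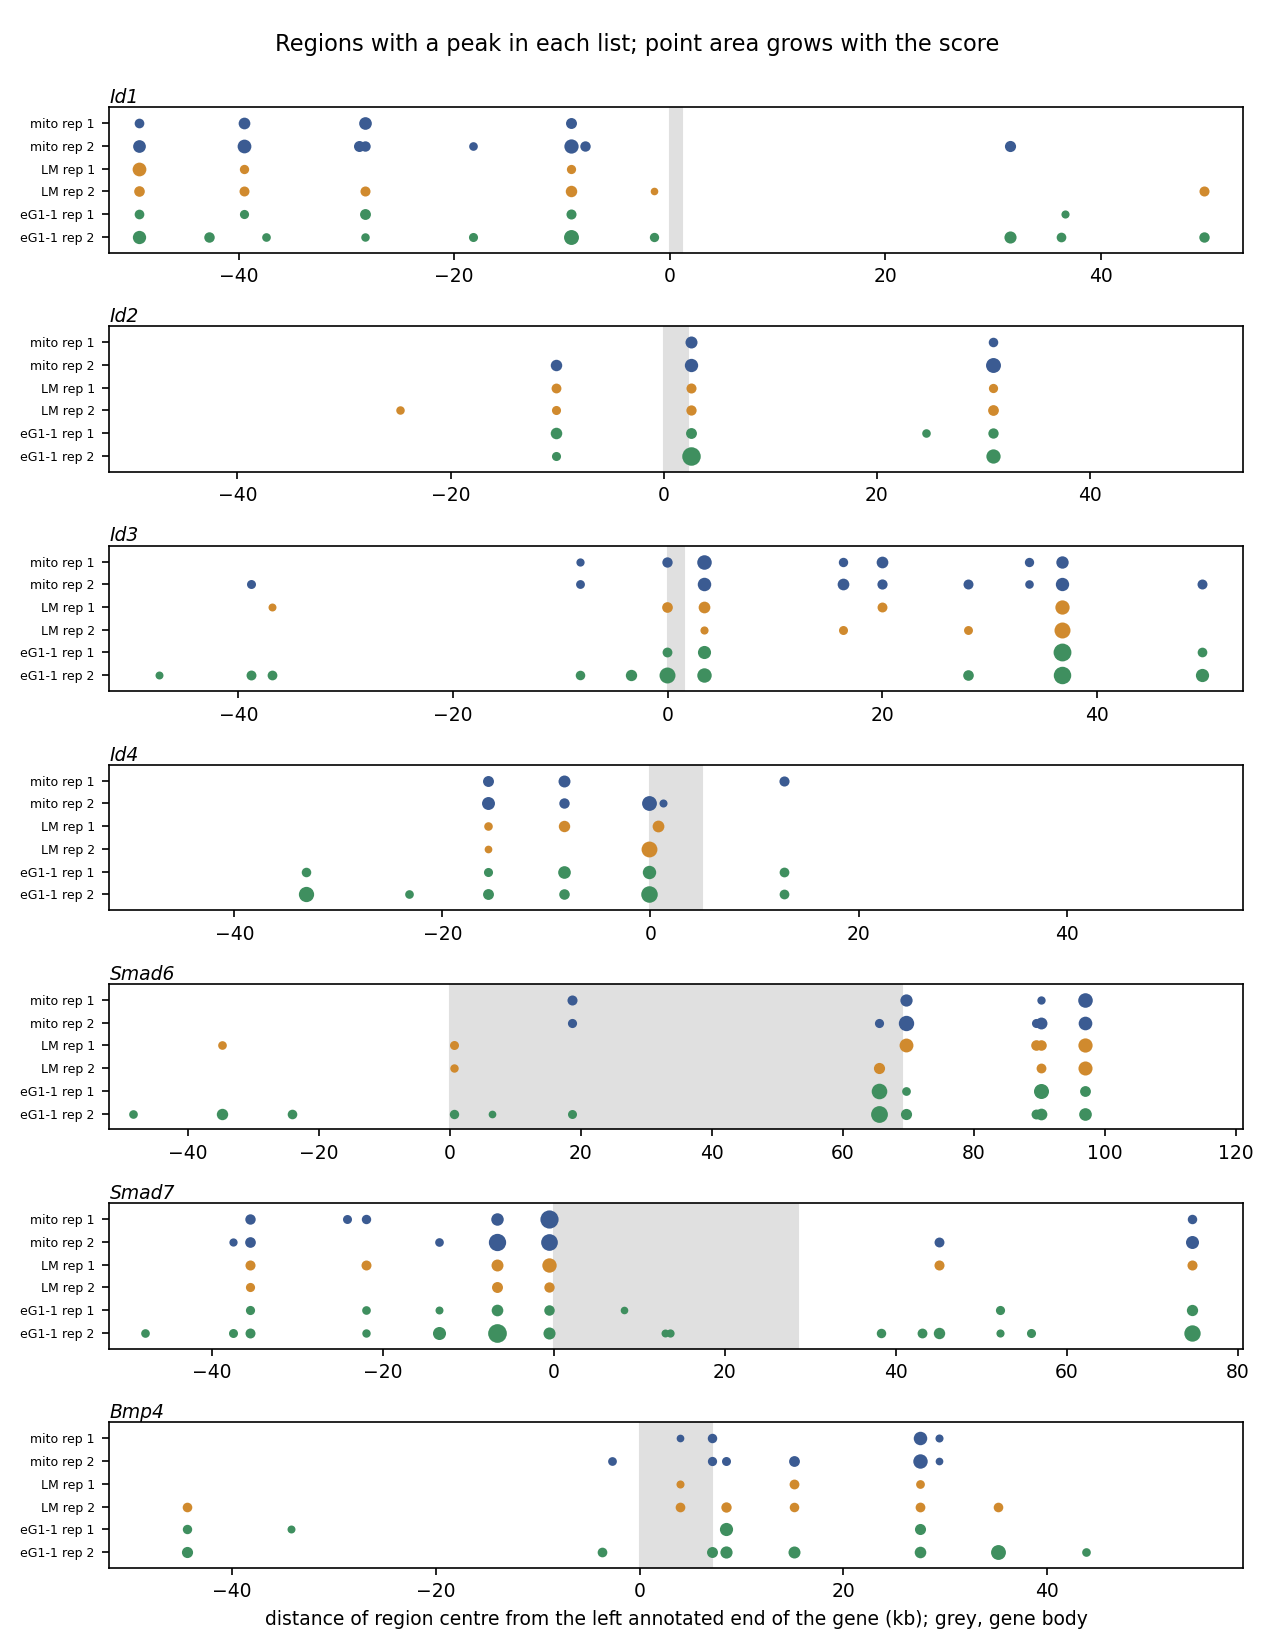
Regions of the 7 windows by distance from the lower annotated end of each gene (horizontal axis, kb), with 1 row per list, point area growing with the authors' score, and the gene body in grey. The body of Id1 holds no peak in any list, and most points found in 1 row alone belong to eG1-1 replicate 2.

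To compare stages at these constant regions, scores were ranked in each list among the 10114 regions held by all 6 lists, and the ranks, as normal scores, were tested with limma over all of them. No region passed an adjusted p of 0.05 in any of the 3 comparisons, so 0 of the 13 did, and percent called was 0 in each direction. At an unadjusted p under 0.05, 7.81% of regions were higher and 7.34% lower in eG1-1 than in mito, 3.95% and 3.36% in LM than in mito, and 3.59% and 4.47% in eG1-1 than in LM. The 13 regions of the windows gave 1, 4 and 1 such regions in these comparisons. Their median difference was -0.25 for eG1-1 against mito, -0.47 for LM against mito and 0.32 for eG1-1 against LM, against -0.01, -0.01 and 0.01 over all regions.

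The gene-end region of Smad7 gave the smallest p of the 13. Its rank stood at the 91.2 and 79.1 percentile in the mito pair, 68.9 and 29.8 in the LM pair, and 20.96 and 15.8 in the eG1-1 pair. Both eG1-1 lists lay below both LM lists, and these below both mito lists. The difference of eG1-1 from mito was -1.99 ± 0.50 (SE) in normal scores (limma adjusted p = 0.168) and that of LM from mito -1.10 ± 0.50 (limma adjusted p = 0.683). Over the 5208 constant regions at gene ends the median difference of eG1-1 from mito was -0.12, and over the 4906 others 0.12.

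Id4 region 3 and Bmp4 region 9 were lower in rank in both later stages in every list. Id4 region 3 stood at the 24.8 and 35.9 percentile in the mito pair, 2.497 and 0.287 in the LM pair, and 5.74 and 7.13 in the eG1-1 pair, a difference of -0.999 ± 0.47 for eG1-1 against mito (SE, limma adjusted p = 0.345) and -1.84 ± 0.47 for LM against mito (limma adjusted p = 0.683). Bmp4 region 9 stood at 59.7 and 55.7 in the mito pair, 3.90 and 20.5 in the LM pair, and 29.2 and 11.7 in the eG1-1 pair, with differences of -1.06 ± 0.49 (SE, limma adjusted p = 0.340) and -1.49 ± 0.49 (limma adjusted p = 0.683). Smad6 region 11 stood at 71.1 and 45.7 in the mito pair, 67.7 and 78.0 in the LM pair, and 25.5 and 21.3 in the eG1-1 pair, where eG1-1 differed from LM by -1.34 ± 0.46 (SE, limma adjusted p = 0.561) and from mito by -0.95 ± 0.46 (limma adjusted p = 0.357). All of these miss the threshold.

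The E2f2 region in the Id3 window stood higher in rank in both later stages in every list, and missed the threshold too. It stood at the 45.1 and 41.1 percentile in the mito pair, 68.1 and 89.0 in the LM pair, and 89.4 and 68.9 in the eG1-1 pair, with differences from mito of 1.04 ± 0.49 for eG1-1 (SE, limma adjusted p = 0.342) and 1.02 ± 0.49 for LM (limma adjusted p = 0.695). Id3 region 7 stood at 70.6 and 43.7 in the mito pair, 38.3 and 2.00 in the LM pair, and 55.4 and 39.8 in the eG1-1 pair, a difference of -1.37 ± 0.59 for LM against mito (SE, limma adjusted p = 0.683) and 1.11 ± 0.59 for eG1-1 against LM (limma adjusted p = 0.630). Smad6 region 10 stood at 1.01 and 21.8 in the mito pair, 21.9 and 21.6 in the LM pair, and 74.5 and 12.7 in the eG1-1 pair, where the replicates of eG1-1 lay farther apart than the stages (1.31 ± 0.66 for eG1-1 against mito, SE, limma adjusted p = 0.375). The Id2 start region stood at 39.9 and 41.1 in the mito pair, 15.5 and 28.8 in the LM pair, and 26.4 and 76.2 in the eG1-1 pair, so its eG1-1 lists lay on either side of the mito lists. Replicate 2 was the higher in each stage, narrowly so in mito, and the part of the batch was not tested.

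**Figure D3:**
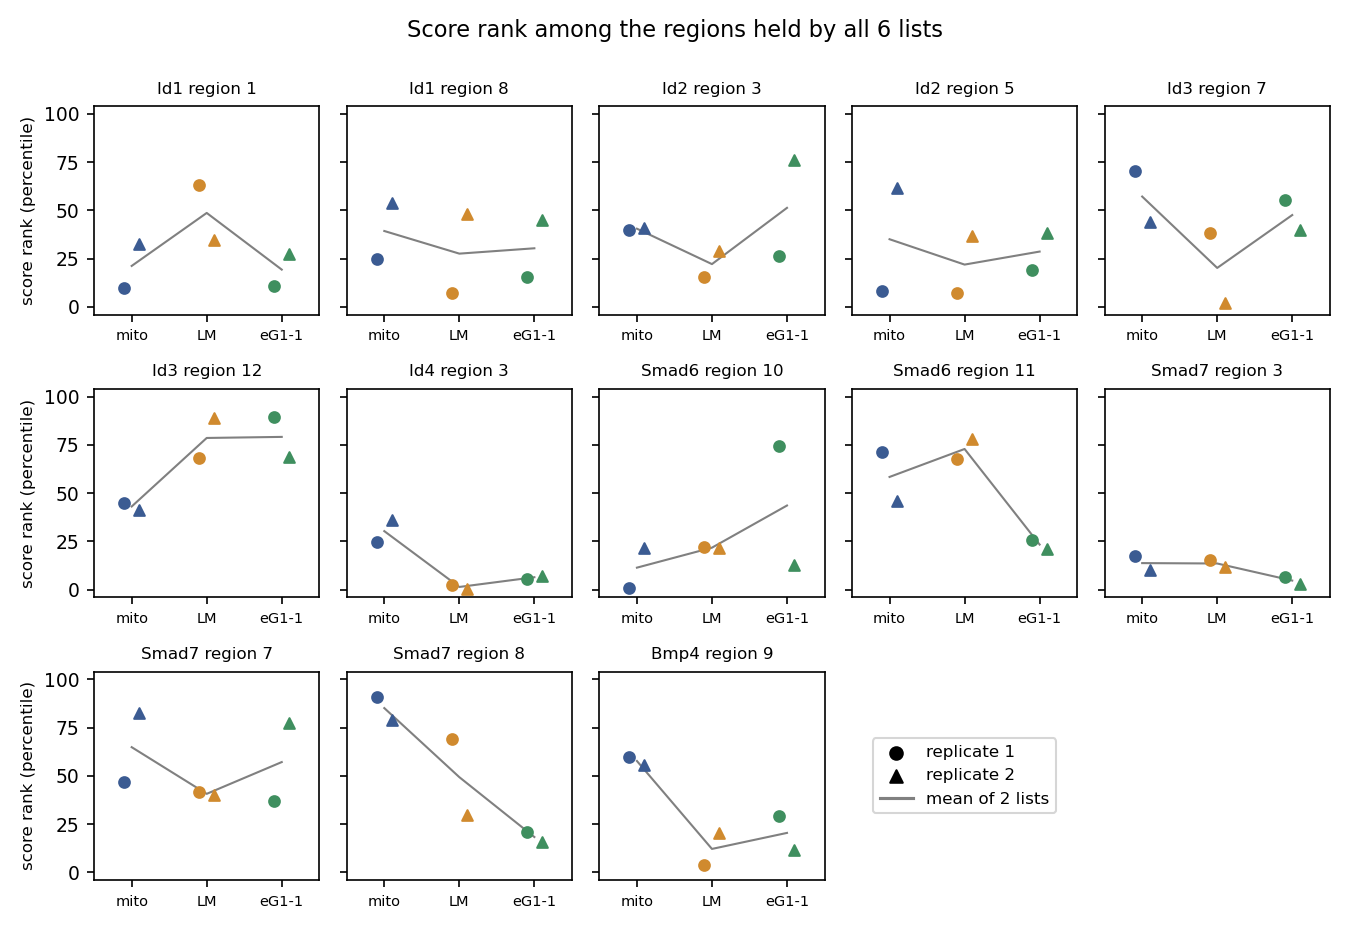
Percentile of each region's score among the 10114 regions held by all 6 lists (vertical axis) by stage, for the 13 regions of the windows, with circles for replicate 1, triangles for replicate 2 and lines through the means of 2 lists. Within the panel of Smad7 region 8, the eG1-1 lists (20.96 and 15.8) stand below the LM lists (68.9 and 29.8) and these below the mito lists (91.2 and 79.1). In Id1 region 8, Id2 region 3 (the start region) and Id2 region 5 the triangles lie above the circles in each stage.

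Regions present in one stage and missing from another were few. Peaks in both eG1-1 lists and no mito list made up 3 of the 80 regions (3.75%, against 8.07% of all regions), and the reverse held for 4 (5.00%, against 1.85%). The eG1-1 regions were Id4 region 1, 32929 bp from Id4 (chromosome 13, 48227813 to 48228187, scores 39 and 137), Smad7 region 15, which is nearer to Ctif (34 and 22), and Bmp4 region 1, 44009 bp from Bmp4 (46338782 to 46339516, 37 and 62), which LM replicate 2 also held (40). Of the 4 mito regions 3 were in the Id3 window, on the side of E2f2. Region 8 (136159828 to 136160495) scored 37 and 71 in mito and 32 in LM replicate 2, region 9 (136163641 to 136164023) scored 71 and 48 in mito and 44 in LM replicate 1, and region 11 (136177355 to 136177662) scored 36 and 27 in mito alone. The fourth, Bmp4 region 10 (46412768 to 46413050), scored 21 and 17, near the lowest score of 13.

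In the step from mito to LM, peaks in both LM lists and no mito list made up 1 region (1.25%, against 0.905% of all regions), the one at the far end of Smad6. The reverse held for 5 (6.25%, against 3.56%). These were the Bmp4 start and Bmp4 region 10, Id3 regions 4 and 11, and Smad6 region 6 inside the gene (63971433 to 63972068), which scored 46 and 34 in mito and 32 in eG1-1 replicate 2. Id3 region 4, 7971 bp before the gene (136135511 to 136135851), scored 23 and 30 in mito and 39 in eG1-1 replicate 2. In the step from LM to eG1-1, peaks in both eG1-1 lists and no LM list made up 5 regions (6.25%, against 9.38%) and the reverse held for 1 (1.25%, against 0.459%). The 5 were Id4 regions 1 and 8, Smad7 regions 6 and 15, and Id3 region 13 within E2f2 (136193156 to 136194043). Id3 region 13 had scores of 41 and 97 in eG1-1 and 45 in mito replicate 2, and Smad7 region 6, 13229 bp from Smad7, had 20 and 94 in eG1-1 and 28 in mito replicate 2. Id4 region 8, over the lncRNA A330048O09Rik (48273702 to 48274242), had scores of 42 and 42 in eG1-1 and 47 in mito replicate 1. The region in LM and not in eG1-1 was Bmp4 region 5 inside the gene (46387313 to 46387665), with 21 and 41 in LM and 17 in mito replicate 1. Presence in 2 lists against 2 was not tested.

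The number of peaks per window showed the spread between lists. The windows together held 31 and 43 peaks in the mito pair, 29 and 29 in the LM pair, and 34 and 63 in the eG1-1 pair. Per 10000 peaks of the list the mean was 13.4 ± 1.08 for mito, 13.1 ± 1.34 for LM and 11.8 ± 1.72 for eG1-1 (SD, 2 lists each), and the ranges of the 3 stages overlapped. By window, Smad7 had 6 and 7 peaks in the mito pair, 6 and 3 in the LM pair, and 8 and 15 in the eG1-1 pair. Id4 had 3 and 4, 3 and 2, and 5 and 6 in the same order of stages. In these windows both eG1-1 counts lay above both mito and both LM counts, which makes 2 of 7 windows in each comparison, against 23.5% of all protein-coding windows for eG1-1 over mito and 35.2% for eG1-1 over LM. Id3 had 8 and 9 in the mito pair, 5 and 4 in the LM pair, and 4 and 10 in the eG1-1 pair, and was the 1 window of 7 with both LM counts below both mito counts, against 15.5% of all windows. None of the 7 had both mito counts above both eG1-1 counts (1.6% of all windows), both LM counts above both mito counts (1.83%) or both LM counts above both eG1-1 counts (0.187%).

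The other windows overlapped between stages. Id1 had 4 and 8 peaks in the mito pair, 3 and 6 in the LM pair, and 5 and 10 in the eG1-1 pair, with replicate 2 higher in each stage. Id2 had the fewest, with 2 and 3, 3 and 4, and 4 and 3 in the same order. Smad6 had 4 and 6, 6 and 4, and 4 and 11, and Bmp4 had 4 and 6, 3 and 6, and 4 and 8. The slope over the order mito, LM, eG1-1 was positive for 6 windows, from 0.5 peaks per stage in Id2 and Bmp4 to 2.5 in Smad7, and -0.75 in Id3. These slopes exceeded 50.0% of all windows for Id2 and Bmp4, 62.9% for Id1, 73.8% for Id4, 81.8% for Smad6 and 98.0% for Smad7. That of Id3 exceeded 1.80%. A slope of 0.5 was thus in the middle of all windows. None of the 7 windows passed the exact two-sided permutation test over 90 assignments, whose smallest p is 0.0222. The exact p ran from 0.289 in Id4 to 0.711 in Id1, with Benjamini-Hochberg adjusted p = 1 for all 7, and no window of the 21887 passed after adjustment. With that smallest p, a window could pass after adjustment only if a large share of all windows reached it. The adjusted result therefore does not show that a trend is absent. At an unadjusted p under 0.05, 1.02% of all windows had an upward and 0.0228% a downward slope. The Id1, Smad6 and Bmp4 slopes turned negative without eG1-1 replicate 2 (-0.64, -0.43 and -0.50), and that of Smad7 became 0.36. The Id3 slope turned to 0.07 without eG1-1 replicate 1. With each list cut to its 20639 strongest peaks, the length of the shortest list, Bmp4 alone kept a positive slope (0.5), those of Id2, Id4 and Smad6 were 0, and those of Id1 and Smad7 were negative (-1.25 and -0.75).

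**Figure D4:**
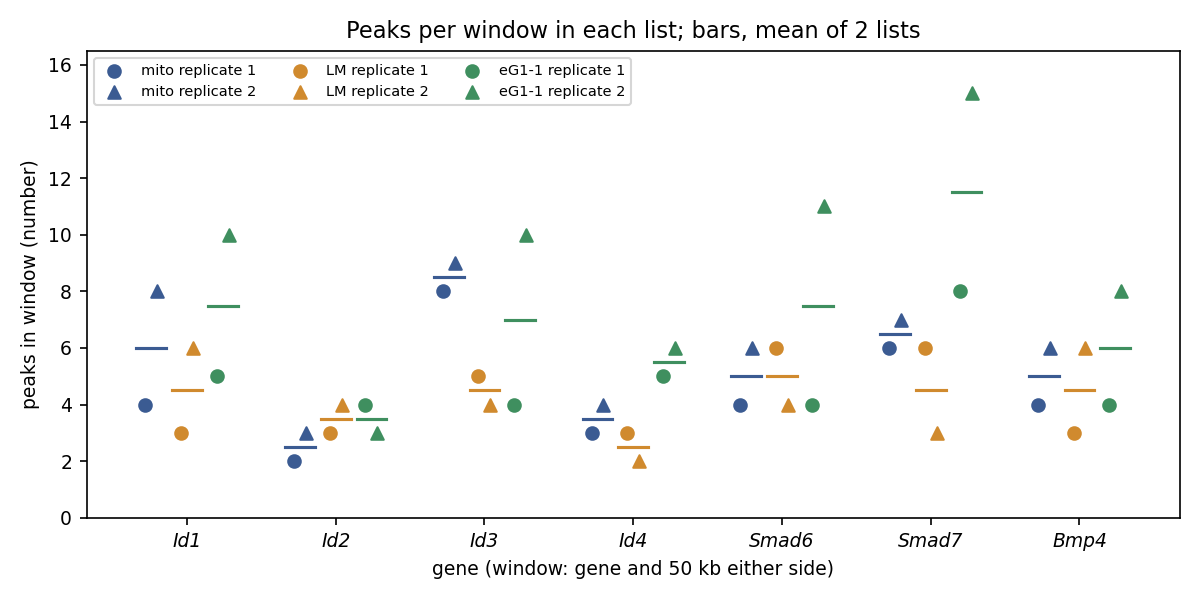
Number of peaks in each window (vertical axis) in the 6 lists, circles for replicate 1, triangles for replicate 2 and bars for the mean of 2 lists. The eG1-1 replicate 2 list stands highest in 6 of the windows, up to 15 peaks at Smad7, and Id2 has 2 to 4 peaks throughout.

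Of the 7 windows, the one with the highest peak density per 100 kb, by percentile among all protein-coding windows, was that of Id3 in both mito lists and that of Smad7 in both eG1-1 lists. Id3 had 7.88 and 8.86 peaks in the mito pair, 4.92 and 3.94 in the LM pair, and 3.94 and 9.85 in the eG1-1 pair, against medians over all windows of 1.74 and 1.99, 1.72 and 1.43, and 2.21 and 3.48. It exceeded 98.0% and 97.4% of windows in the mito pair, 89.6% and 87.7% in the LM pair, and 75.2% and 96.9% in the eG1-1 pair. Smad7 exceeded 85.5% and 84.4% in the mito pair, 87.4% and 67.6% in the LM pair, and 92.8% and 99.0% in the eG1-1 pair. Id1 exceeded 80.6% and 95.6%, 72.1% and 96.8%, and 85.1% and 97.0% in the same order, with replicate 2 higher in each stage. Id2 was close to the median in eG1-1 replicate 2, where it exceeded 44.6% of windows.

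For each member the protein-coding gene with the most similar peak counts over the 6 lists was sought, by the sum of absolute differences. Bhlhe23 had the same 6 counts as Id4, as did 3 others of the 4 tied genes. The sum was 1 for Tpd52l1 with Id2 (10 tied), Il6ra with Smad7 and Gm10037 with Bmp4, and 2 for Agrn with Id1, Dgkz with Id3 (3 tied) and Il17b with Smad6. These are likenesses of small counts only.

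The other genes of the pathway were then followed in 6 lists of 44 genes. A peak within 1 kb of a gene end was held by 26 and 32 of the 44 in the mito pair, 33 and 20 in the LM pair, and 22 and 31 in the eG1-1 pair. As shares these were 59.1% and 72.7%, 75.0% and 45.5%, and 50.0% and 70.5%, against 46.6% and 50.4%, 47.4% and 35.7%, and 42.1% and 52.7% of all protein-coding genes in the same order. In every stage the replicates lay farther apart than the stage means. In all 6 lists 11 of the 44 had such a peak, against 6081 of all 21887 protein-coding genes, a similar share. In none 4 did, namely Bmp5, Fst, Nbl1 and Dlx3, against 8446 of all genes.

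Genes of these lists with no such difference between stages, named in what follows for their scores or their presence in few or all lists, were chosen after their values were seen. Ligand genes included Bmp6 and Bmp8a, with a peak in all 6 lists, while Bmp2 had one in LM replicate 1 alone. Bmp8a scored 113 and 186 in the mito pair, 140 and 69 in the LM pair, and 59 and 141 in the eG1-1 pair. Gdf3 scored 84 and 63 in mito, 22 in LM replicate 1 and 61 in eG1-1 replicate 2. Among receptors, the type I receptor genes Bmpr1b and Acvrl1 and the co-receptor gene Eng had a peak in all lists, and Bmpr1a in mito replicate 2 (17) and LM replicate 1 (57) only. The type II receptor gene Acvr2a had a peak in both eG1-1 lists (47 and 63) and neither LM list, and in mito replicate 2 (44). It was the 1 of 44 genes in that direction, against 2.35% of all protein-coding genes.

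Among the signal transducers, Smad5 had a peak in both eG1-1 lists (83 and 54) and neither mito list, and in LM replicate 2 (26). It was the 1 of 44 in that direction, against 1.61% of all genes. Smad4, the partner of the receptor SMADs, had a peak in all lists, with 96 and 52 in the mito pair, 85 and 39 in the LM pair, and 42 and 35 in the eG1-1 pair. Smad1 lacked one in eG1-1 replicate 1 alone. Of the inhibitors, Tob1, an antiproliferative gene whose product restrains BMP signalling in mouse bone cells, had no peak in eG1-1 and scored 117 and 165 in mito and 148 in LM replicate 1. It was the 1 of 44 in mito and not in eG1-1, against 1.97% of all genes. Smurf1, a ubiquitin ligase for SMADs and their receptors, had the highest score of the 44 genes in 4 of the 6 lists (Tcf3 led in mito replicate 1 and Tcf4 in LM replicate 1), with 213 and 209 in the mito pair, 174 and 170 in the LM pair, and 212 and 510 in the eG1-1 pair. Bambi, a pseudoreceptor, and Grem1, a secreted antagonist, also had a peak in all lists.

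Among further targets, the homeobox gene Msx1 was held by both LM lists (55 and 24) and by no other list, which made it the 1 of 44 in LM and not in mito (0.356% of all genes) and in LM and not in eG1-1 (0.480%). No gene of the 44 was held by both mito lists and neither LM list. The E protein genes encode the partners that ID proteins bind. Tcf3 scored 234 and 186 in the mito pair, 163 and 112 in the LM pair, and 142 and 129 in the eG1-1 pair, and Tcf4 scored 173 and 134 in the mito pair, 184 and 49 in the LM pair, and 55 and 49 in the eG1-1 pair. Tcf12 had a peak in 4 lists.

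**Figure D5:**
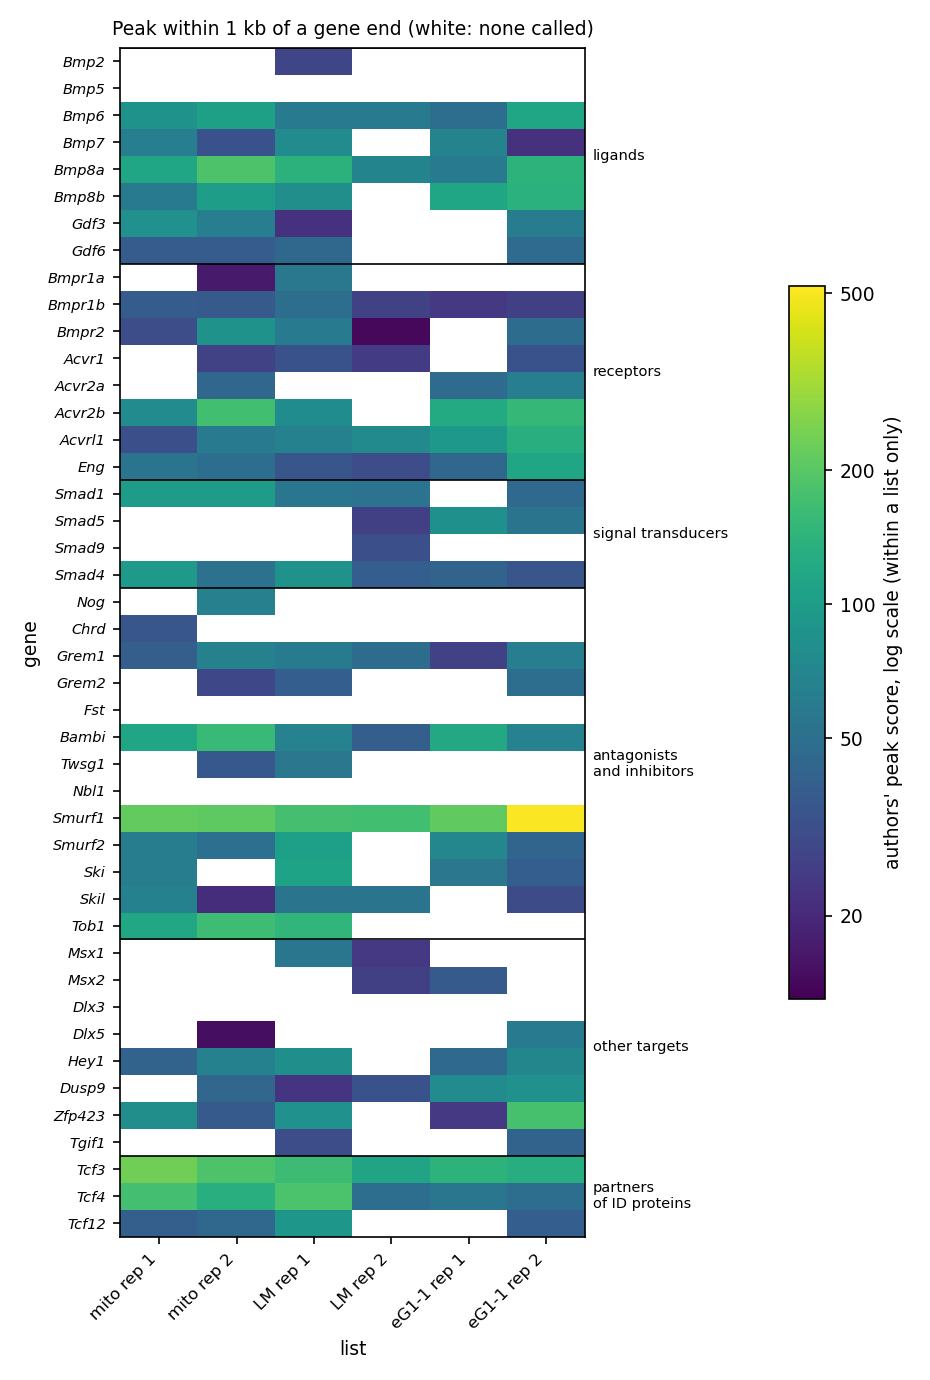
Score of the highest peak within 1 kb of a gene end (colour, log scale, comparable within a list) for the 44 pathway genes (rows, by role) in the 6 lists (columns), white where none was called. LM replicate 2 and eG1-1 replicate 1 have the most white cells, with 20 and 22 of the 44 genes held.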

How the data were processed

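ATAC-seq was made on 6 samples of CGR8 cells, 2 each of the names mito, LM and eG1-1, which were grouped by their titles. Each sample has 1 deposited list of peaks with 5 columns, and the authors' score in each list is a whole number whose scaling is not given. Per the submitters' processing notes, MACS2 2.2.4, STAR 2.7.0e, bedtools, deepTools 3.5.1, Picard and SAMtools 1.10 were named with mm10 and GRCm38, with no roles stated. The peak names show calling per sample on paired-end fragments. Whether reads were shifted for the Tn5 offset is not given in the sources used here, and the lists hold no read counts, so depth is unknown.

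Gene positions came from a RefSeq table on GRCm38.p6 without strand. Strand came from the promoter table, which held 5 of the 7 genes. Peaks were merged into regions with Python 3.11.15 and pandas 2.3.3 where they shared 1 bp. The trend in peak number was tested by exact permutation over all protein-coding windows, and score ranks with limma 3.58.1 in R 4.3.3, both tested on simulated data first. Rank differences are named where the unadjusted p was under 0.1. Named regions are those at gene ends, in all lists, or in both lists of one stage and neither of another. The alternatives were lists cut to the 20639 strongest peaks, a score of at least 50, windows of 25 and 100 kb, gene ends within 500 bp, merging within 200 bp, counts per 10000 peaks, a replicate block and leaving out each list. Members and gene lists were chosen with earlier results of these data known. Same-numbered lists share a batch name in the peak names. The correlations of their deviations in peak presence were 0.0324 for eG1-1 and mito, 0.0328 for LM and mito and 0.0141 for eG1-1 and LM. In score rank they were 0.0817, 0.0460 and 0.0501 in the same order.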

Additional observations from a re-analysis of the deposited data

How the results depend on the processing

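With lists cut to equal length, the slopes became -1.25 for Id1, -0.75 for Smad7 and -2.75 for the 7 windows together (5.75 as reported), those of Id2, Id4 and Smad6 became 0, that of Id3 was -1.25, and that of Bmp4 alone was positive (0.5). The regions in mito and not LM then numbered 0, in eG1-1 and not LM 2, and in LM and not eG1-1 3, and 11 pathway genes (21 as reported) had a gene-end peak in both eG1-1 lists. At a score of at least 50, the slopes of Id1 and Id3 were -1 and 0.25, that of Smad7 was 0.25 (2.5 as reported), and regions numbered 2 in mito and not eG1-1, 0 in LM and not mito, 3 in eG1-1 and not LM, and 0 in LM and not eG1-1. Gene-end peaks in both lists then numbered 2 in LM and 3 in eG1-1 of the 7 genes, and 13 in mito, 7 in LM and 9 in eG1-1 of the 44. With 25 kb either side, Bmp4 had a slope of -0.75, and the regions in eG1-1 and not mito numbered 1 and in eG1-1 and not LM 3. With 100 kb, Id3 had 0.25, and regions in eG1-1 and not mito numbered 6, in mito and not LM 9, and in eG1-1 and not LM 12. Within 500 bp of an end, 2 of the 7 genes were held in both LM lists and 9 of the 44 in both eG1-1 lists. Per 10000 peaks, the slopes were -0.157 for Id1, -0.0195 for Smad6 and -0.174 for Bmp4. With shorter lists fewer peaks enter, and a wider window takes in more.

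With 1 list left out, the slopes ranged from -0.64 to 1.93 for Id1, 0.21 to 0.79 for Id2, -2.5 to 0.0714 for Id3, 0.5 to 1.5 for Id4, -0.43 to 2.57 for Smad6, 0.36 to 3.36 for Smad7, -0.50 to 1.21 for Bmp4, and -2.43 to 10.3 for the windows together. Where 1 list stood for a stage, regions in eG1-1 and not mito numbered 6 to 26, in mito and not eG1-1 5 to 8, in LM and not mito 2 to 6, in mito and not LM 7 to 15, in eG1-1 and not LM 9 to 29, and in LM and not eG1-1 2 to 3, and the counts of 26 and 29 came without eG1-1 replicate 1. The 44 genes in both LM lists (17 as reported) ranged from 20 to 33. The replicate block restricts the permutation test of the slopes to 36 assignments within replicate number and leaves the slopes themselves as reported. The smallest p this test can give is 0.0556, which is above the threshold even before adjustment. No window could therefore pass, and the adjusted p = 1 for each window says nothing on whether the slopes hold. With the same block, limma called 0 regions, with a smallest adjusted p of 0.102 among the 13. No alternative run with all 6 lists gave a call at any of the 13 regions that it held. No run, those with 1 list left out included, turned a named rank difference that it held. Of the 13 regions, 4 were held at a score of at least 50 and 10 at equal list length. Id4 region 3 and Smad6 region 10 were in neither of these 2 runs, and Id3 region 7 and Bmp4 region 9 not in the former. Their rank differences were therefore not checked there. The limits are that the presence of single regions was not tested, and that depth, which bears on how many peaks are called, is unknown.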
